A study of Mus musculus with 48 samples.

Results

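Fatty acid oxidation and peroxisome genes were followed in whole kidneys of 2 mouse strains after part of the kidney mass had been removed. The list holds 38 genes, chosen for their known steps in fatty acid breakdown, with earlier results of these data known. Each was read from the probe set that names it alone and has the highest mean over the 48 arrays, which gave 37 measured genes among the 13174 genes tested. The array annotation used here listed no such probe set for Acsl1, a long-chain acyl-CoA synthetase, so its expression was not analysed here. Of the 37, 17 act in mitochondria, 14 in peroxisomes, and 6 (Acot1, Crat, Ech1, Eci2, Amacr and Acad11) in both or elsewhere. All 37 passed the filter on low values.

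Mice of the FVB strain, described in the series as prone to kidney lesions, and of the C57BL/6 strain (B6 below), described as not prone to them, had surgery at 9 weeks of age. Surgery was either subtotal nephrectomy (Nx) or a sham operation, and total RNA came from frozen whole kidney 2, 28 or 53 days later. That gave 12 groups of strain, surgery and day with 4 arrays each, 1 array per numbered mouse. The labels name no allele, transgene or drug, and do not give the mice's sex or the amount of kidney removed.

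Fatty acids are the main fuel of the proximal tubule, the nephron segment that recovers most of the filtrate and is rich in both mitochondria and peroxisomes. Mitochondria take up long-chain acyl groups through the carnitine shuttle, shorten them by repeated rounds of dehydrogenation, hydration, a further dehydrogenation and thiolysis, and pass the electrons to the respiratory chain through electron transfer flavoprotein. Peroxisomes shorten very long and branched chains with oxidases that make hydrogen peroxide, which catalase removes, and hand the products to mitochondria. Many of these genes are known targets of the nuclear receptor PPAR-alpha and its coactivator PGC-1alpha.

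The values are the log2 expression values the authors deposited, in which 32.1% of all values sit at the lowest value of the table and the array medians lie between 3.17 and 3.44. A change below is Nx minus sham of the same strain and day on this log2 scale, and "rose" or "fell" means an adjusted p under 0.05 from limma with Benjamini-Hochberg adjustment over all 13174 genes. The p-values measure the spread between these samples. Some arrays carried transcripts of neighbouring organs: the mean of the 12 pancreas genes ran from 3.01 to 15.0 over the Nx arrays, and 19 arrays stood apart for it. The mean of 6 liver genes was 10.57 in mouse 4 of the FVB sham group at day 28, where the others read 5.19 to 5.36. For 7 skeletal muscle genes it was 7.88 and 5.38 in mice 7 and 8 of the FVB Nx group at day 53, where the others read 2.61 and 2.78. In mouse 3 of the FVB Nx group at day 28 it was 6.23, with the others at 3.50 to 3.75. The skeletal muscle list shares Pvalb with the list of thick ascending limb and distal markers used below. Of the 18 proximal tubule marker genes, 14 fell and none rose in FVB Nx kidneys at day 2, and 16 fell and none rose at day 53. In B6, 12 fell and 2 rose at day 2, while 4 fell and 3 rose at day 53. Monocyte and macrophage markers rose in every surgery comparison, 10 to 12 of 12. In whole-kidney RNA, fewer cells of a type and less RNA per cell cannot be told apart.

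In FVB Nx kidneys most of the genes passed as lower at days 2 and 53, and 3 did at day 28. At day 2 in FVB, 21 members fell and 4 rose, where 30.0% of all genes tested fell and 24.8% rose. Together that is 25 of 37, beside 54.8% of all genes. The members' median change was -0.36, against -0.03 for all genes. All 4 Nx arrays lay below all 4 sham arrays for 16 members, which held for 23.7% of all genes. At day 28, 3 fell and 0 rose (8.81% and 7.35% of all genes), a share near the background. The day 28 changes lay below 0 for 25 of the 37, where the median of all genes was also below 0, at -0.02. Nx arrays were wholly below sham for 8 (as for 1583 of the 13174 genes) and wholly above for 2 (9.2% of all genes). At day 53, 26 fell and 0 rose (27.8% and 25.9% of all genes, 53.7% together), with a median of -0.39 against -0.01 for all genes, and 18 members had Nx arrays wholly below sham, as did 24.0% of all genes. None had them wholly above, as 22.2% of all genes did.

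In B6 kidneys fewer members passed as lower at days 2 and 53 than in FVB. At day 2, 14 members fell and 5 rose (24.4% and 20.2% of all genes, 44.6% together), with a median of -0.11. All 4 Nx arrays lay below all 4 sham arrays for 14 members, which held for 22.0% of all genes. At day 28, 9 fell and 1 rose (9.14% and 9.85% of all genes), and Nx arrays lay wholly below sham for 6 members (9.7% of all genes). At day 53, 6 fell and 2 rose (6.68% and 8.03% of all genes), with a median of -0.13. Changes lay below 0 for 27 of the 37 at day 53, where the median of all genes was also below 0, at -0.01. Nx arrays lay wholly below sham for 14 (10.4% of all genes), as many as at day 2. The 14 members that fell at day 2 in B6 had all fallen in FVB as well, where they were 66.7% of the 21 falls. At day 53, 5 members fell in both strains, which is 19.2% of the FVB falls and 83.3% of the B6 falls. The overlap of falls between the strains was not counted over all genes, so these shares have no background beside them.

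The day 2 splits moved with the scaling of the arrays. When each array was shifted to a common median, the median gene moved by -0.17 at day 2 in FVB, -0.16 at day 53 in FVB and -0.12 at day 2 in B6. The splits became 29 lower and 1 higher in FVB at day 2 (48.6% and 17.5% of all genes under the same shift), 20 lower and 3 higher in B6 at day 2 (38.1% and 15.2%), and 29 lower and 0 higher in FVB at day 53 (44.6% and 18.8%). None of the 91 member calls in the 6 surgery comparisons changed sign under that shift or under quantile normalisation. In fits that left out 1 array at a time, 7 of the 25 calls in FVB at day 2 were lost at least once (Acox3, Cpt1a, Crot, Decr1, Hsd17b4, Scp2 and Slc25a20), as were 6 of 26 at day 53 (Acaa1b, Acox3, Cat, Cpt2, Ehhadh and Scp2). In B6, 6 of 19 were lost at day 2 (Etfdh, Hacl1, Hadha, Hsd17b4, Scp2 and Slc25a20) and 5 of 10 at day 28, all 5 without mouse 3 of the Nx group (Acot1, Amacr, Crat, Ech1 and Ehhadh). That mouse stood apart, with a macrophage marker mean of 10.62 where the other 3 read 8.70 to 9.00. It was also the only array of its group without pancreas transcripts, at 3.24 where the others read 12.95 to 13.31. Its proximal tubule marker mean was 12.04, with the others at 12.41 to 12.51. Of 8 fits each, B6 calls were lost in 6 for Hadha and Scp2 at day 2 and for Ech1 at day 28. FVB calls were lost in 7 for Cpt2 and 5 for Ehhadh at day 53, and in 6 for Slc25a20 at day 2. Without the arrays that carried pancreas transcripts, 2 FVB Nx arrays were left at day 53, and 23 members fell and 0 rose there (23.4% and 27.3% of all genes). Those 2 arrays, of mice 8 and 10, carried adrenal transcripts, with means over 3 adrenal genes of 9.00 and 8.64. Mice 4 and 7 read 3.96 and 3.32. At day 2 leaving out the pancreas arrays left 1 Nx array in each strain, so only changes are given. In B6 they were -0.51 for Acaa2 (-0.73 with all arrays), -0.53 for Acaa1a (-0.63) and -0.23 for Phyh (-0.31). Hadha had -0.11 (-0.25), Etfdh -0.15 (-0.23), Scp2 -0.27 (-0.29) and Hsd17b4 0.36 (0.23). In FVB, Cpt1a had 0.04 (-0.73) and Ech1 -0.17 (-0.37), while Crot had -0.29 (-0.23). The other members' changes in this fit are not given here.

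Markers of other tissues and segments moved at the same time. The mean of the 5 brown fat markers, a tissue rich in fatty acid oxidation, was 6.11 to 8.27 in FVB sham arrays at day 2 and 5.95 to 7.66 in B6 sham arrays. In the Nx arrays of that day it was 3.51, 3.66, 4.62 and 8.12 in FVB and 3.48, 3.62, 3.68 and 5.52 in B6, with 2 of 5 markers lower in FVB and 4 of 5 in B6. The sham arrays thus lay above all Nx arrays in B6 and above 3 of 4 in FVB, except that mouse 4 of the FVB Nx group read as high as the sham arrays. The part of brown fat RNA in the members' falls was not tested. Without the 5 arrays highest in these markers, 18 members fell and 2 rose in FVB at day 2 (22.4% and 21.0% of all genes), and 12 fell and 6 rose in B6 (22.2% and 18%). The 2 FVB and 3 B6 sham arrays kept in that comparison were not free of these transcripts. Of the 8 thick ascending limb and distal markers, 8, 1 and 7 fell in FVB at days 2, 28 and 53, and 8, 4 and 3 in B6. Of the 7 collecting duct markers, 7, 1 and 6 fell in FVB and 4, 4 and 3 in B6. Tubular injury markers rose, 8, 6 and 9 of 9 in FVB and 9, 8 and 7 in B6.

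**Figure D1:**
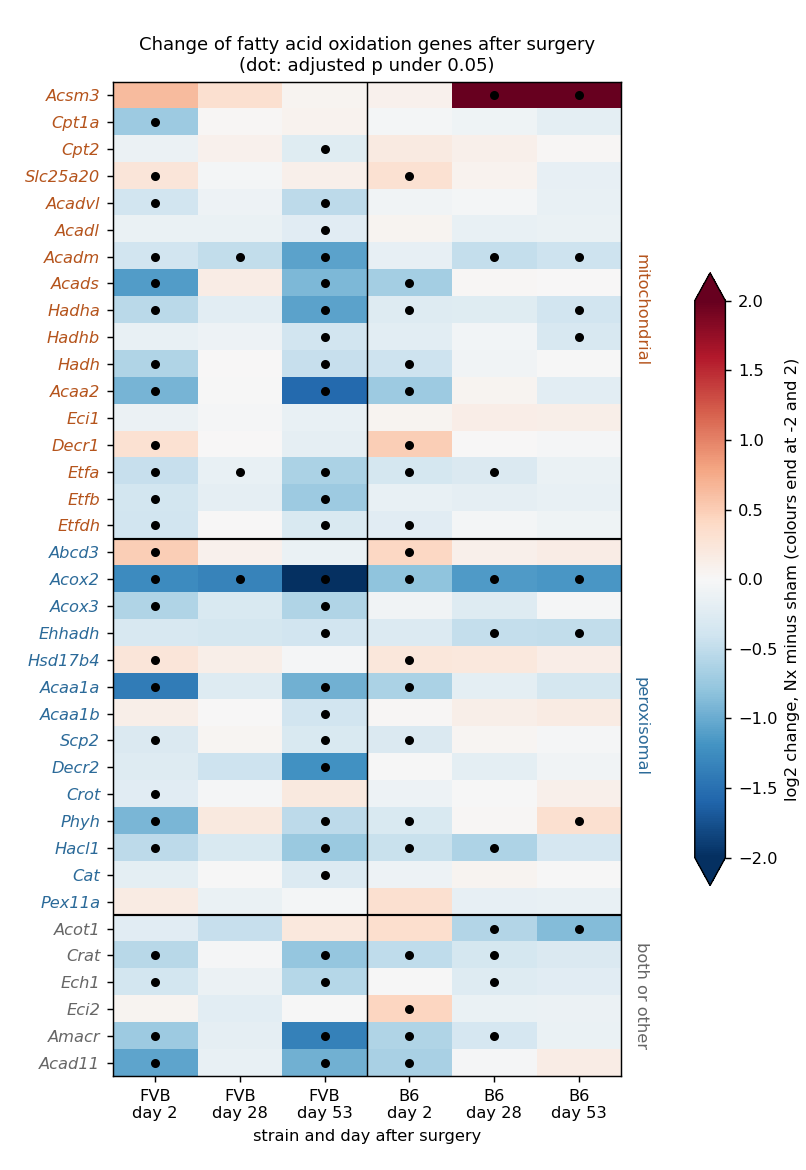
Heat map of the log2 change (Nx minus sham) of the 37 measured genes, in rows by compartment, in the 6 comparisons of strain and day, in columns, with blue for lower and red for higher. A dot marks an adjusted p under 0.05; blue cells dominate in FVB at days 2 and 53, with 21 and 26 genes lower, and Acsm3 stands out as higher in B6 at days 28 and 53.

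Acox2, the peroxisomal oxidase that takes the first step on branched chains and bile acid intermediates, was the only measured member that fell in all 6 comparisons. In FVB at day 53 the Nx arrays read 8.48, 8.60, 8.65 and 9.01, and the sham arrays 11.14, 11.20, 11.21 and 11.43. The groups were more than 2 log2 units apart, a 5.89-fold difference (change -2.56, SE 0.12, adjusted p = 3.1e-19). At day 2 in FVB the Nx arrays read 9.59, 9.78, 9.80 and 9.98 and the sham arrays 10.90, 10.91, 11.10 and 11.26 (-1.25, adjusted p = 3e-11). At day 28 the Nx arrays read 9.59, 9.83, 9.92 and 9.97 and the sham arrays 11.09, 11.15, 11.16 and 11.21 (-1.33, adjusted p = 5.42e-10).

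In B6, Acox2 read 9.37, 9.51, 9.64 and 9.74 in the day 2 Nx arrays and 10.21, 10.29, 10.47 and 10.50 in the sham arrays (-0.80, adjusted p = 9.44e-07). The day 28 Nx arrays read 9.08, 9.28, 9.61 and 9.81 and the sham arrays 10.49, 10.59, 10.59 and 10.66 (-1.13, adjusted p = 1.7e-08). The day 53 Nx arrays read 9.40, 9.58, 9.62 and 9.84 and the sham arrays 10.64, 10.74, 10.77 and 10.97 (-1.17, adjusted p = 8.49e-09). In none of the 6 comparisons did the groups overlap. Sham kidneys of the strains differed as well, FVB being higher by 0.57 (SE 0.07, adjusted p = 1.1e-08).

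The promoters were read for the element DR1, the direct repeat that PPAR-alpha binds with its partner RXR, since many of the genes are its known targets. The 250 bases before each start in RefSeq's annotation of build GRCm38.p6 were searched on both strands. The pattern was the hexamer AGGTCA, then any 1 base, then AGGTCA again. Of the 38 genes on the list, 33 had a window, among them Acsl1, whose expression was not measured. With up to 2 mismatches, 2 of the 33 genes held a match (6.06%), against 1005 of all 27025 genes with a window (3.72%). With up to 1 mismatch, 0 of 33 did, against 0.566% of all genes. The members with a match were Cat, the peroxisomal enzyme that breaks down hydrogen peroxide, and Etfa, a subunit of electron transfer flavoprotein. They are shown with the match in capitals, beside 1 of the windows of Acox2, the gene with a fall in each comparison, which held no match. A match is a description of letters, and the absence of one says only that these letters are not in this window.
Cat, chr2:103485154-103485403, minus strand, match 204 to 192 bases before the start: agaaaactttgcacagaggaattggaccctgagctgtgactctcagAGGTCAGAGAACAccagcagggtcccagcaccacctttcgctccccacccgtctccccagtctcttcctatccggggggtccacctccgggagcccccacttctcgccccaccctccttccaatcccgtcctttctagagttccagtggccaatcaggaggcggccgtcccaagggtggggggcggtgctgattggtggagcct
Etfa, chr9:55512244-55512493, minus strand, match 77 to 65 bases before the start and on the other strand: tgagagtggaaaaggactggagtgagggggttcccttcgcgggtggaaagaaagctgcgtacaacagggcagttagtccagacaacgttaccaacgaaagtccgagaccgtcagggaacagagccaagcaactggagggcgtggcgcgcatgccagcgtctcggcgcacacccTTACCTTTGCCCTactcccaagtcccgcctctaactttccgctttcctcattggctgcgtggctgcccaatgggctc
Acox2, chr14:8258840-8259089, minus strand: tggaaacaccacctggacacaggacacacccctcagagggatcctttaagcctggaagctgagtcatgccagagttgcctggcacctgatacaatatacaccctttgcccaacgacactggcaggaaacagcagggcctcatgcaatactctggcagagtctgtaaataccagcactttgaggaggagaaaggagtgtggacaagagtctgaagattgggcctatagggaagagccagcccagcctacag
Cat fell in FVB at day 53 (-0.27) and in no other surgery comparison, while Etfa fell in 5 of the 6.

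The genes of the carnitine shuttle moved in both directions. Slc25a20, the carnitine and acylcarnitine carrier of the inner membrane, read 10.88, 11.03, 11.04 and 11.35 in FVB Nx arrays at day 2 and 10.70, 10.84, 10.87 and 10.90 in sham arrays. The groups overlapped slightly, and the rise was 0.25 (SE 0.10, adjusted p = 0.0413). In B6 the Nx arrays read 10.72, 10.97, 11.17 and 11.21 and the sham arrays 10.59, 10.67, 10.70 and 10.90, again with overlap (0.30, adjusted p = 0.0172). These rises did not pass under the median shift, at 0.08 in FVB and 0.18 in B6, and the FVB rise fell to 0.16 without mouse 4 (adjusted p = 0.227).

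Cpt1a, the outer membrane enzyme that controls entry into the shuttle, fell in FVB at day 2 (-0.73, adjusted p = 0.0262). The Nx arrays read 8.87, 10.59, 10.87 and 11.13 and the sham arrays 10.82, 11.10, 11.20 and 11.26. Only mouse 5 lay far below, and without it the change was -0.23 (adjusted p = 0.389), which does not pass. The other kept probe sets of Cpt1a gave -0.23 and -0.36. Cpt2, which reverses the transfer inside, fell in FVB at day 53 only among the surgery comparisons (-0.25). That call was lost in 7 of the 8 fits that left out 1 array. Crat, which makes short-chain acylcarnitines, fell in FVB at day 2 (-0.56) and day 53 (-0.78) and in B6 at day 2 (-0.51) and day 28 (-0.35).

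Of the acyl-CoA dehydrogenases, which open each round, Acads had the largest fall at day 2 in both strains. Acads, the short-chain enzyme, read 7.89, 8.17, 8.18 and 8.35 in FVB Nx arrays and 9.11, 9.20, 9.36 and 9.41 in sham arrays at day 2. The groups lay apart by a change of -1.12 (SE 0.12, adjusted p = 2.17e-10). At day 28 the Nx arrays read 9.38 to 9.57 and the sham arrays 9.19 to 9.40 (0.16, adjusted p = 0.425). At day 53 they read 8.28 to 8.51 and 9.14 to 9.41 (-0.89, adjusted p = 3.08e-08), so the FVB values were low, near sham, and low again.

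In B6, Acads read 8.43, 8.48, 8.48 and 8.55 in Nx arrays at day 2 and 9.04, 9.05, 9.28 and 9.30 in sham arrays (-0.68, adjusted p = 8.78e-06). Its later changes were 0.02 at day 28 and 0.01 at day 53, neither past the threshold. Acadm, the medium-chain enzyme, kept a fall at day 28: FVB Nx arrays read 13.70, 14.04, 14.23 and 14.25 and sham arrays 14.43, 14.55, 14.61 and 14.61 (-0.50, SE 0.11, adjusted p = 0.000712). The groups did not overlap. Acadm also fell in FVB at day 2 (-0.39) and day 53 (-1.07), and in B6 at day 28 (-0.48) and day 53 (-0.41), but its B6 change at day 2, -0.17, did not pass. Without the arrays that carried pancreas transcripts, which leaves 1 FVB Nx array at day 28, the FVB day 28 call was lost.

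Acadvl, the very long-chain enzyme, fell in FVB by 0.38 at day 2 and by 0.53 at day 53 and passed at no day in B6. Acadl, the long-chain enzyme, fell in FVB at day 53 (-0.23), and its B6 change of -0.14 at that day did not pass. Acad11, a dehydrogenase of long and hydroxylated chains, fell in FVB at days 2 (-1.05) and 53 (-0.96) and in B6 at day 2 (-0.65).

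All 4 members of the following steps fell in FVB at day 53. Hadha and Hadhb encode the subunits of the trifunctional protein: Hadha fell by 0.54 and 1.06 in FVB at days 2 and 53, and by 0.25 and 0.38 in B6. Hadhb fell at day 53 in FVB (-0.39) and in B6 (-0.32), and its day 2 changes of -0.15 and -0.21 did not pass. Its other kept probe sets gave -0.60 and -0.16 in FVB at day 2, and -0.50 and -0.09 in B6. At day 53 they gave -1.05 and -0.42 in FVB, and -0.24 and -0.18 in B6. The size of the Hadhb changes thus depends on the probe set, and the other probe sets were not tested on their own. Hadh, the hydroxyacyl-CoA dehydrogenase for shorter chains, fell at day 2 in both strains (-0.61 and -0.41) and at day 53 in FVB (-0.46).

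Acaa2, the thiolase that cuts off acetyl-CoA, had the largest FVB fall among the mitochondrial members at day 53. The Nx arrays read 9.86, 9.86, 10.07 and 10.70 and the sham arrays 11.52, 11.58, 11.78 and 11.84. The groups lay well apart (-1.56, SE 0.18, adjusted p = 2.7e-09). At day 28 in FVB the Nx arrays read 11.66 to 12.03 and the sham arrays 11.60 to 11.97, a change of -0.01 that did not pass. At day 2 in B6 the Nx arrays read 10.39, 10.60, 10.83 and 10.90 and the sham arrays 11.03, 11.40, 11.54 and 11.67 (-0.73, adjusted p = 0.00115). Here the groups did not overlap. At day 53 in B6 the Nx arrays read 11.48, 11.62, 11.69 and 11.90 and the sham arrays 11.80, 11.89, 11.92 and 11.94, with overlap, and the B6 changes at days 28 and 53, 0.05 and -0.22, did not pass.

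Electron transfer from the dehydrogenases runs through Etfa and Etfb, the flavoprotein's subunits, and Etfdh, which passes the electrons on to ubiquinone. Etfa in FVB at day 28 read 13.19, 13.19, 13.20 and 13.26 in Nx arrays and 13.31, 13.35, 13.38 and 13.43 in sham arrays. The groups did not overlap, but the fall was small (-0.15, SE 0.05, adjusted p = 0.045) and passed in 2 of the 8 fits that left out 1 array. Etfa fell by 0.47 and 0.64 in FVB at days 2 and 53, and by 0.35 and 0.29 in B6 at days 2 and 28. Etfb fell in FVB by 0.36 at day 2 and 0.73 at day 53 and passed at no day in B6. Etfdh fell at day 2 in both strains (-0.39 and -0.23) and at day 53 in FVB (-0.30).

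Auxiliary enzymes, which prepare unsaturated chains, moved in both directions. Decr1, the mitochondrial dienoyl-CoA reductase, read 12.11, 12.24, 12.26 and 12.54 in B6 Nx arrays at day 2 and 11.69, 11.74, 11.85 and 11.93 in sham arrays. The Nx arrays were all higher (0.49, SE 0.10, adjusted p = 0.000118). In FVB at day 2 they read 12.06, 12.24, 12.24 and 12.48 against 11.78, 11.96, 12.02 and 12.06 (0.30, adjusted p = 0.0111), with mouse 2 of the Nx arrays at the level of the highest sham array. A second, dimmer probe set of Decr1 went the other way, by -0.07 in FVB and -0.33 in B6, so the direction depends on the probe set. Under the median shift the FVB change was 0.13 and did not pass.

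Eci2, an enoyl-CoA isomerase, read 11.50, 11.56, 11.75 and 11.80 in B6 Nx arrays at day 2 and 11.12, 11.13, 11.31 and 11.36 in sham arrays. It was higher in all Nx arrays (0.42, SE 0.09, adjusted p = 7.67e-05). In FVB the same change was 0.05 and did not pass, and the difference between strains did not pass either (-0.37, adjusted p = 0.0628). Eci1, the mitochondrial isomerase, passed in none of the 6 comparisons. Ech1, a dienoyl-CoA isomerase of both organelles, fell in FVB at days 2 (-0.37) and 53 (-0.57) and in B6 at day 28 (-0.26).

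**Figure D2:**
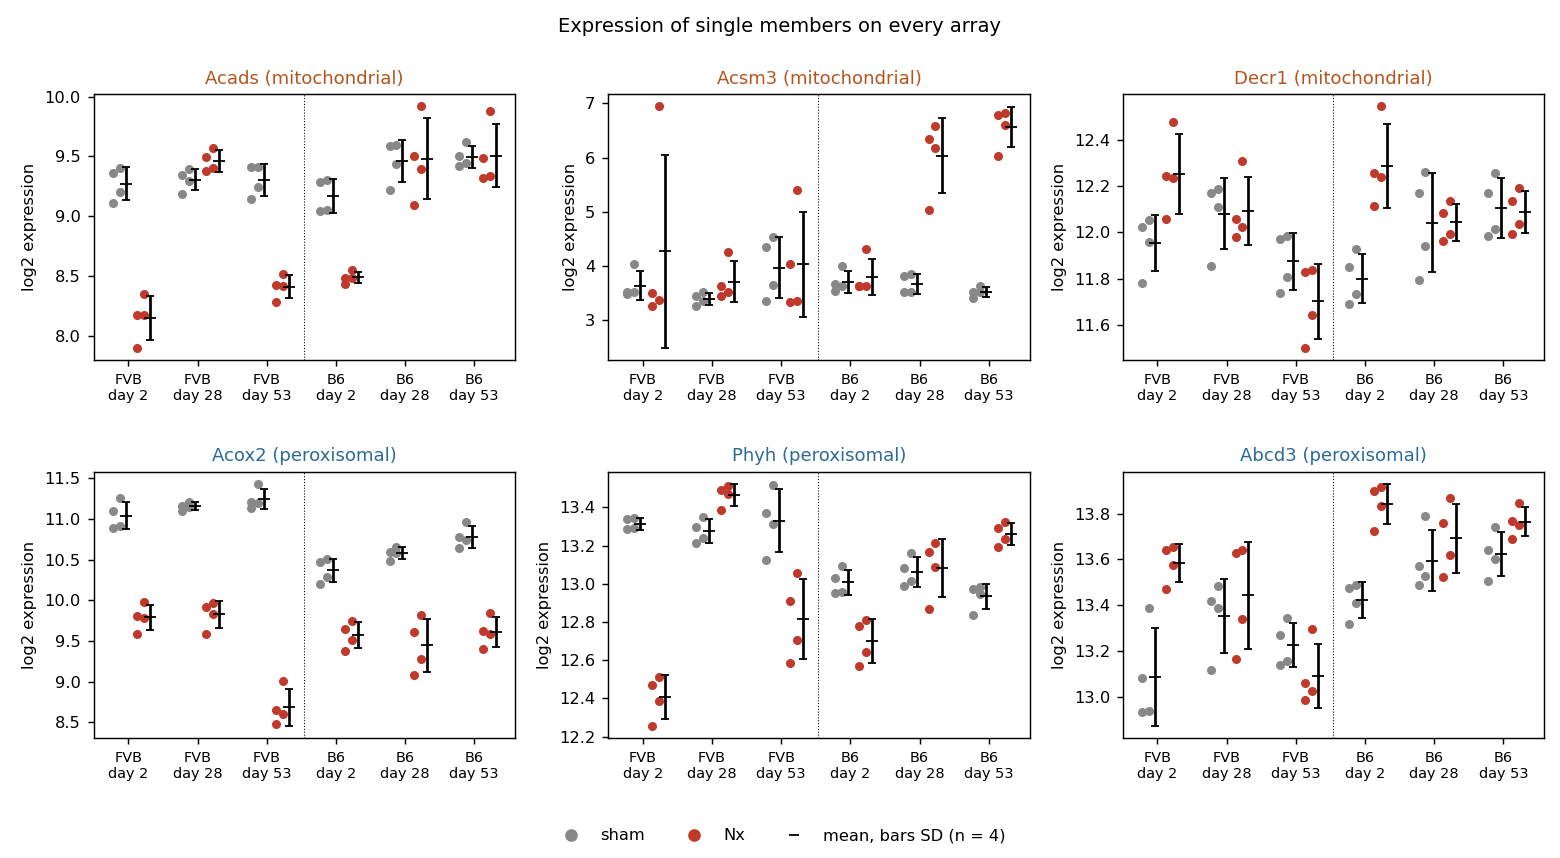
Log2 expression of Acads, Acsm3 and Decr1 (mitochondrial) and Acox2, Phyh and Abcd3 (peroxisomal) in each of the 48 arrays, by strain, surgery (grey sham, red Nx) and day, with each group's mean and SD (n = 4). Acox2 lies lower after Nx in each strain and day, Acsm3 stands at 5.03 to 6.82 in B6 Nx arrays at days 28 and 53 against 3.40 to 3.85 in their sham arrays, and Abcd3 is higher after Nx at day 2.

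Acsm3, a mitochondrial medium-chain acyl-CoA synthetase, was the member with the largest rise. In B6 at day 53 the Nx arrays read 6.02, 6.61, 6.79 and 6.82 and the sham arrays 3.40, 3.51, 3.51 and 3.61. The groups lay far apart (3.05, SE 0.46, adjusted p = 9.37e-06). The low values of Acsm3 recur exactly between arrays, 3.50 in 5 of the 48, and no fold is given for it. At day 28 the Nx arrays read 5.03, 6.18, 6.34 and 6.59 and the sham arrays 3.50, 3.50, 3.80 and 3.85 (2.37, adjusted p = 0.000245). At day 2 the Nx arrays read 3.61 to 4.30 and the sham arrays 3.53 to 4.00 (0.09, adjusted p = 0.925).

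In FVB, Acsm3 passed at no day, with changes of 0.64, 0.32 and 0.06. Single Nx arrays were high: mouse 4 at day 2 read 6.94 where the others read 3.25 to 3.49, and at day 53 the Nx arrays read 3.32, 3.34, 4.03 and, in mouse 8, 5.39, where the sham arrays read 3.34, 3.64, 4.35 and 4.52. The 5 adipose marker genes moved with it in part. In B6 their mean per array was 6.17 to 8.84 in Nx and 3.44 to 3.77 in sham arrays at day 53, with 4 of 5 genes higher, and 5.44 to 8.43 against 3.67 to 5.59 at day 28, with 3 of 5 higher. FVB mouse 4 at day 2 had an adipose mean of 9.53 and mouse 8 at day 53 one of 8.37. In contrast, FVB sham mouse 5 at day 2 had an adipose mean of 8.86 with Acsm3 at 4.03, FVB sham mouse 6 at day 53 one of 8.33 with Acsm3 at 4.52, and the B6 sham arrays at day 2 ran from 6.40 to 7.81 with Acsm3 at 3.53 to 4.00. The part of adipose tissue in the rise of Acsm3 was not tested.

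Acot1, a cytosolic thioesterase that releases free fatty acids from CoA, fell in B6 at days 28 and 53. At day 53 the Nx arrays read 10.34, 10.55, 10.75 and 10.81 and the sham arrays 11.30, 11.50, 11.52 and 11.58. The groups did not overlap (-0.86, SE 0.18, adjusted p = 0.000523). At day 28 the Nx arrays read 10.02, 10.19, 10.44 and 10.45 and the sham arrays 10.55, 10.72, 10.94 and 11.20 (-0.58, adjusted p = 0.0162), a call lost in 3 of the 8 fits that left out 1 array. The FVB changes, -0.22, -0.47 and 0.22, did not pass. At day 53 the FVB Nx arrays read 10.33, 10.57, 11.01 and 11.63 around sham arrays of 10.40, 10.72, 10.73 and 10.81. Acot1 has close relatives in the genome, so its probe set may read more than 1 gene.

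Of the peroxisomal members, Abcd3 had the largest rise at day 2 in both strains. Abcd3, a transporter that carries acyl-CoA into peroxisomes, read 13.47, 13.58, 13.64 and 13.65 in FVB Nx arrays and 12.94, 12.94, 13.08 and 13.39 in sham arrays. All Nx arrays were higher (0.50, SE 0.10, adjusted p = 2.81e-05). In B6 they read 13.72, 13.83, 13.90 and 13.91 against 13.32, 13.41, 13.47 and 13.49, again without overlap (0.42, adjusted p = 0.000427). These rises passed under both scalings as well, but not when its probe sets were averaged (0.35 and 0.45). At days 28 and 53 Abcd3 passed in neither strain.

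Beside Acox2, the oxidases and bifunctional enzymes changed less. Acox3, a branched-chain oxidase whose value of 4.52 recurs exactly in 5 arrays, fell in FVB at days 2 and 53 (-0.60 at both). Hsd17b4, the bifunctional enzyme of branched and very long chains, rose at day 2 in both strains (0.24 and 0.23), which did not pass under the median shift. Ehhadh, the bifunctional enzyme of straight chains, read 12.85, 12.93, 12.93 and 13.19 in B6 Nx arrays at day 53 and 13.28, 13.39, 13.58 and 13.64 in sham arrays. All Nx arrays were lower (-0.50, SE 0.15, adjusted p = 0.0232), a call lost in 4 of the 8 fits that left out 1 array. It also fell in B6 at day 28 (-0.47) and in FVB at day 53 (-0.38).

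Among the peroxisomal thiolases, Acaa1a read 7.80, 8.04, 8.18 and 8.59 in FVB Nx arrays at day 2 and 9.16, 9.60, 9.70 and 9.75 in sham arrays. The groups lay apart (-1.40, SE 0.16, adjusted p = 8.64e-10). In B6 at day 2 the Nx arrays read 8.33, 8.83, 8.87 and 8.88 and the sham arrays 9.30, 9.33, 9.37 and 9.42 (-0.63, adjusted p = 0.0011). It fell in FVB at day 53 too (-0.97). Its near copy Acaa1b fell only in FVB at day 53 (-0.38), and since the Acaa1a probe set is of a kind that can read related transcripts, the division between these genes is uncertain. Scp2, a thiolase and sterol carrier, fell at day 2 in both strains (-0.30 and -0.29) and in FVB at day 53 (-0.30). Its other kept probe sets gave -0.67, -1.21 and -0.31 in FVB at day 2, and -0.34, -0.27 and -0.23 in B6. At day 53 they gave -0.55, -1.01 and -0.39 in FVB, and 0.02, 0.23 and -0.07 in B6. The size of the Scp2 falls thus depends on the probe set.

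Phyh, Hacl1 and Amacr, which handle branched chains, all fell at day 2 in both strains. Phyh, which starts alpha-oxidation of phytanic acid, read 12.26, 12.38, 12.47 and 12.51 in FVB Nx arrays at day 2 and 13.28, 13.29, 13.34 and 13.35 in sham arrays. The groups did not overlap (-0.91, SE 0.08, adjusted p = 1.86e-12). In B6 at day 2 they read 12.57, 12.64, 12.78 and 12.81 against 12.95, 12.96, 13.03 and 13.09 (-0.31, adjusted p = 0.00122). At day 53 the strains went opposite ways: FVB Nx arrays read 12.58, 12.71, 12.91 and 13.06 against 13.12, 13.31, 13.37 and 13.52 in sham, and B6 Nx arrays read 13.19, 13.23, 13.29 and 13.32 against 12.84, 12.95, 12.97 and 12.98. Phyh thus fell in FVB (-0.52, adjusted p = 4.1e-07) and rose in B6 (0.33, adjusted p = 0.00268), with no overlap in either. The difference between the strains was -0.84 (SE 0.11, adjusted p = 3.42e-07).

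Hacl1, the lyase of the next alpha-oxidation step, read 10.34, 10.50, 10.56 and 10.67 in B6 Nx arrays at day 28 and 11.04, 11.09, 11.19 and 11.24 in sham arrays. All Nx arrays were lower (-0.62, SE 0.15, adjusted p = 0.00259). It also fell in B6 at day 2 (-0.45) and in FVB at days 2 and 53 (-0.53 and -0.74). Amacr, the racemase that makes branched chains fit for oxidation, read 10.06, 10.07, 10.62 and 10.80 in FVB Nx arrays at day 53 and 11.66, 11.66, 11.76 and 11.87 in sham arrays. The groups lay apart (-1.35, SE 0.12, adjusted p = 1.45e-12). Amacr fell at day 2 in both strains (-0.72 and -0.60) and at day 28 in B6 (-0.34).

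Of the remaining peroxisomal members, Decr2 had the largest change. Decr2, the peroxisomal dienoyl-CoA reductase, fell in FVB at day 53 (-1.21), and its B6 change of -0.07 did not pass. Crot, which makes medium-chain acylcarnitines for export, fell in FVB at day 2 (-0.23). Pex11a, a factor of peroxisome division, passed in none of the 6 comparisons, its changes running from -0.16 to 0.33.

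Members of both compartments fell, and the difference between their counts was not tested. At day 2, 10 of 17 mitochondrial and 7 of 14 peroxisomal members fell in FVB, and 6 of 17 and 5 of 14 in B6, with 2 of each rising in each strain. Of all genes, 24.8% rose at that day in FVB and 20.2% in B6. At day 53 in FVB, 12 of 17 and 10 of 14 fell. In B6 it was 2 of 17 and 3 of 14 at day 28, and 3 of 17 and 2 of 14 at day 53. Among all genes 30.0% and 24.4% fell at day 2 in FVB and B6 and 27.8% at day 53 in FVB, while 9.14% and 6.68% fell in B6 at days 28 and 53, where the counts in each compartment are few. Per Nx array, the mean mitochondrial change minus the mean peroxisomal change was 0.04 ± 0.21 (SD, n = 4) at day 2, 0.14 ± 0.03 at day 28 and 0.08 ± 0.12 at day 53 in FVB. The B6 values were 0.02 ± 0.07, 0.24 ± 0.06 and 0.18 ± 0.04, with all 4 Nx arrays above 0 at days 28 and 53, as in FVB at day 28, where they ran from 0.105 to 0.180. The sham arrays of B6 at day 28 ran from -0.077 to 0.157 and those of FVB at day 28 from -0.030 to 0.030. These are descriptions of the averages, without a test.

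That gap rested on a pair of genes. Without Acsm3 and Acox2, a choice made after their values were seen, it was -0.08, 0.03 and -0.10 in FVB and -0.04, 0.03 and -0.09 in B6. In B6 at day 53, where the 4 arrays had been above 0, none was above 0 without these genes. The wide spread in FVB at day 2 came with mouse 4, whose mean mitochondrial change was 0.01 where the others were between -0.46 and -0.37. Its brown fat marker mean was 8.12 and its adipose mean 9.53.

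**Figure D3:**
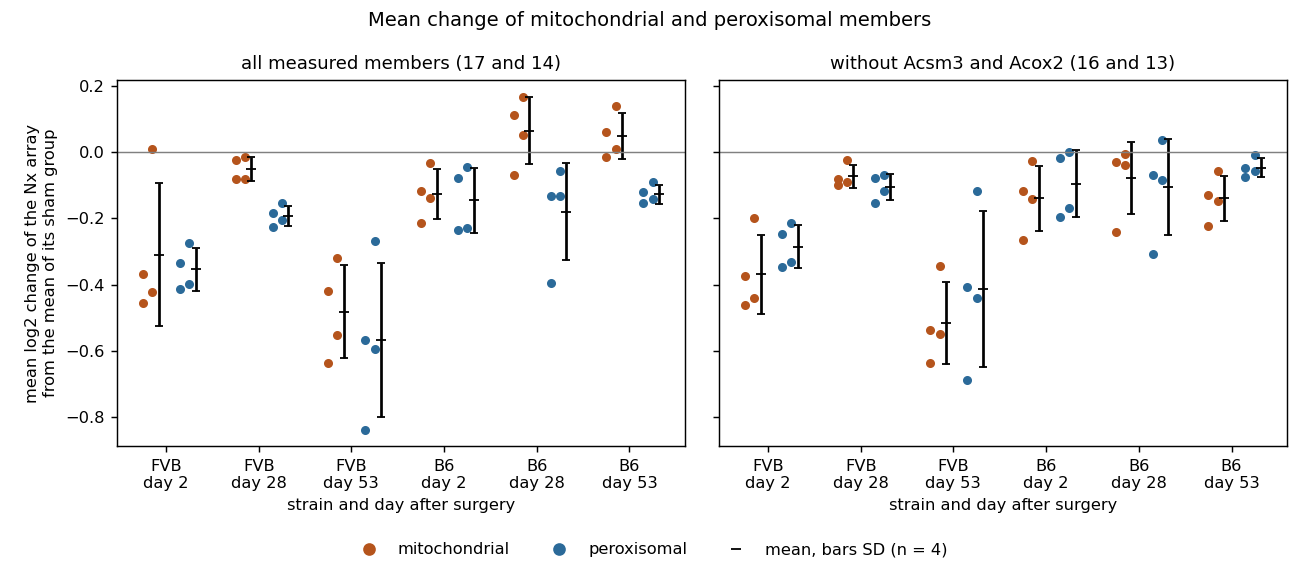
Mean log2 change from the sham group mean over the 17 mitochondrial and the 14 peroxisomal members in each Nx array, by strain and day, with the mean and SD of the 4 arrays, for all members and without Acsm3 and Acox2. With all members the mitochondrial means lie above the peroxisomal ones in FVB at day 28 and in B6 at days 28 and 53, and without these 2 genes the difference of the means lies between -0.10 and 0.03 over the 6 comparisons.

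The strains were compared in the same fit, as the Nx effect in FVB minus that in B6. At day 2 the effect differed for 2 members, both more negative in FVB, where 2.14% of all genes were lower and 2.27% higher (4.41% together). These were Phyh (-0.60, SE 0.11, adjusted p = 0.000429) and Acaa1a (-0.77, SE 0.22, adjusted p = 0.0344). The Acaa1a call was lost in 11 fits that left out 1 array, and the Phyh call in none. At day 28 no member differed at an adjusted p under 0.05, and 0.0683% of all genes were lower and 0.0607% higher (0.129% together).

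At day 53, 18 members were more negative in FVB and 1 was more positive (14.9% and 14.2% of all genes), with a median difference of -0.37 against 0.01 for all genes. Of the carnitine shuttle, Cpt1a, Cpt2 and Slc25a20 are not among the 18, nor are Hadhb, Etfdh, Ehhadh and Hsd17b4. For Hadhb this holds for the probe set used. Its second probe set, at -1.05 in FVB and -0.24 in B6, was not tested on its own. The 18 include the dehydrogenases Acads (-0.90), Acadm (-0.66), Acadvl (-0.37) and Acad11 (-1.10), Hadha (-0.69) and Hadh (-0.45) of the next steps, the thiolase Acaa2 (-1.34, SE 0.26, adjusted p = 0.000127), and Etfa (-0.51) and Etfb (-0.59) of electron transfer. Of the peroxisomal genes they include Acox2 (-1.39, SE 0.17, adjusted p = 1.12e-07), Decr2 (-1.14), Phyh (-0.84), Acaa1a (-0.62) and Acaa1b (-0.54). Amacr (-1.21), Crat (-0.49) and Ech1 (-0.35) were among them as well. Of the 16 fits that left out 1 array, the call was lost in 12 for Acaa1b, 5 for Acaa1a and 6 for Ech1, and in none for the other 16 members called. Acsm3 had the most negative difference (-2.99, SE 0.66, adjusted p = 0.000575), having risen in B6 and passed at no day in FVB.

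The member with a positive difference at day 53 was Acot1 (1.08, SE 0.25, adjusted p = 0.000983), which fell in B6. Without the 2 FVB Nx arrays that carried adrenal transcripts, 15 members were more negative and 1 more positive (14.4% and 11.0% of all genes). The FVB Nx arrays kept there, of mice 4 and 7, carried pancreas transcripts (8.15 and 13.87). No FVB Nx array at day 53 was thus free of both tissues' transcripts. The proximal tubule list moved along: its mean over 18 genes was 11.37 to 11.67 in FVB Nx arrays at day 53 and 12.62 to 12.73 in sham arrays, while in B6 it was 12.38 to 12.54 and 12.49 to 12.60. The thick ascending limb and distal list went from a mean of 11.68 in FVB sham arrays to 9.67 in Nx arrays at day 53, and from 11.74 to 11.29 in B6. The collecting duct list went from 8.88 to 7.55 in FVB and from 8.90 to 8.31 in B6, and the tubular injury list from 5.68 to 10.03 and from 5.68 to 7.63. The part of these segments in the members' falls was not tested.

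**Figure D4:**
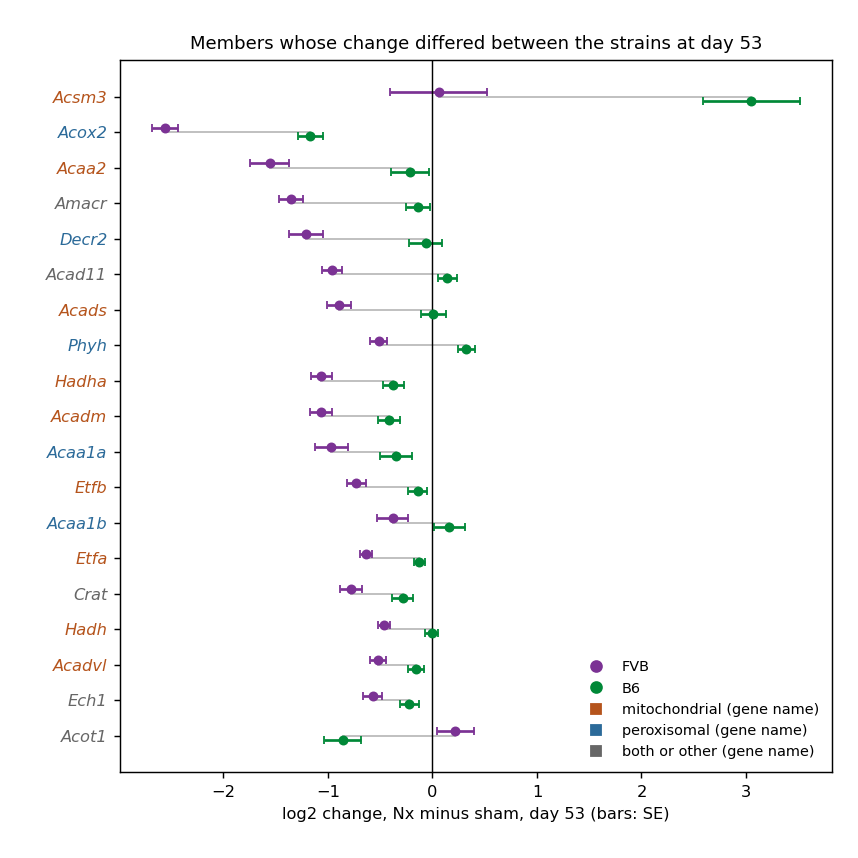
Log2 change (Nx minus sham) at day 53 in FVB (purple) and B6 (green), with standard errors as bars, for the 19 members in rows whose change differed between strains. For 18 the FVB point lies to the left of the B6 point and for Acot1 to the right, and Acsm3 has the widest gap, with 3.05 in B6 and 0.06 in FVB.

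Between days the Nx effect on the members in FVB mostly rose from day 2 to 28 and fell from day 28 to 53, among those past the threshold. From day 2 to day 28 it rose for 11 members and fell for 1 (12.8% and 12.5% of all genes), most for Acads (1.28), Acaa1a (1.14) and Phyh (1.10), and the fall was that of Abcd3 (-0.41). From day 28 to day 53 it fell for 17 members and rose for 1 (12.6% and 13.7% of all genes), most for Acaa2 (-1.55), Acox2 (-1.23), Amacr (-1.17) and Acads (-1.05), and the rise was that of Acot1 (0.68). Both changes use the day 28 arrays.

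In B6 the effect rose from day 2 to day 28 for 5 members and fell for 3 (4.84% and 4.02% of all genes). Acsm3 (2.28), Acaa2 (0.78), Acads (0.70), Acad11 (0.62) and Hadh (0.34) rose, and Acot1 (-0.92), Eci2 (-0.55) and Decr1 (-0.49) fell. From day 28 to day 53 no member and 0.0% of all genes passed in limma.

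Sham kidneys of the strains differed in 14 members over the 3 days together. FVB was higher for 10 (16.9% of all genes) and lower for 4 (15.6%). The higher ones were led by Acox2 (0.57) and Crat (0.50), followed by Phyh (0.30), Acaa1a (0.30) and Amacr (0.29). The lower ones were Ech1 (-0.75), Cpt1a (-0.58), Crot (-0.43) and Abcd3 (-0.32).

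Further genes of these pathways, from lists that hold no member, are read against the shares of all genes that fell, 30.0% and 27.8% in FVB and 24.4% and 6.68% in B6 at days 2 and 53. Of the 16 measured genes of PPAR-alpha, its coactivators and fatty acid uptake, 8 fell and 4 rose at day 2 and 10 fell and 3 rose at day 53 in FVB, and at these days 8 fell and 3 rose, and 3 fell and 1 rose, in B6. Fabp3, a cytosolic fatty acid carrier, fell in all 6 comparisons (-1.06, -0.62 and -2.35 in FVB, -0.77, -0.99 and -0.71 in B6). Ppargc1a, which encodes PGC-1alpha, fell in all 6 as well (-1.09, -0.51 and -1.47 in FVB, -0.54, -0.69 and -0.45 in B6). Slc27a2, a fatty acid transporter and very long-chain acyl-CoA synthetase, fell in 5 of the 6, its B6 change at day 53, -0.05, not passing.

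Of 20 other mitochondrial fatty acid genes, 14 fell and 1 rose at day 2 in FVB and likewise in B6. At day 53, 14 fell and 3 rose in FVB, and 5 fell and 0 rose in B6. Acsm2, a medium-chain acyl-CoA synthetase of the same family as Acsm3, fell in FVB at days 2 (-1.94) and 53 (-1.25), and in B6 at the 3 days (-1.91, -0.44 and -0.36). Acsm1, another of that family, fell in all 6 comparisons, from -0.53 to -2.65. Oxct1, which lets tissues burn ketone bodies, also fell in all 6, from -0.25 to -1.03.

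Of 15 peroxins and related membrane proteins, 11 fell and 0 rose at day 2 and 12 fell and 0 rose at day 53 in FVB, while in B6 9 fell and 1 rose at day 2 and 1 fell at day 53, a share at the background. Pxmp2, a pore protein of the peroxisomal membrane, fell in all 6 (-1.49, -0.68 and -2.08 in FVB, -0.79, -0.78 and -0.59 in B6). Pex7, the import receptor of Phyh and the Acaa1 thiolases among others, fell at day 2 in FVB (-0.73) and B6 (-0.53). Pex10, part of the import machinery, fell at day 53 in FVB (-1.32).

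Of 21 other peroxisomal enzymes, 12 fell and 1 rose at day 2 and 15 fell and 0 rose at day 53 in FVB, while in B6 9 fell and 1 rose at day 2 and 3 fell and 1 rose at day 53. Dao, D-amino acid oxidase, fell at day 2 in FVB (-2.84) and B6 (-2.64). At day 28 its B6 change of -0.30 did not pass, nor did its FVB change. Hao2, a hydroxyacid oxidase, fell in all 6 comparisons (-1.45 in FVB and -1.77 in B6 at day 2). Gstk1, a peroxisomal and mitochondrial glutathione transferase, fell at day 53 in FVB (-1.36), while its B6 change of -0.13 did not pass.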

How the data were processed

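Total RNA of whole mouse kidney was measured on 48 Affymetrix arrays, 4 in each of 12 groups. The table analysed holds log2 expression values as the authors deposited them, for 45101 probe sets. The submitters' processing notes name MAS5 without giving its role, and the background correction, normalisation and genome build are not given in the sources used here. Probe sets were named through the platform annotation given with the data: 34958 had 1 gene symbol, 932 had several and 9211 were not listed. After leaving out 64 control probe sets, a probe set was kept if 4 or more arrays exceeded 2.28, the table's 40th percentile, and each gene was its kept single-symbol probe set with the highest mean. The depth of an array cannot be stated as counts; the number of arrays limits the precision.

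All 48 arrays entered 1 limma 3.58.1 fit (R 4.3.3; lmFit, contrasts.fit, eBayes with intensity trend), with a mean per group and 14 contrasts. Tests were two-sided with Benjamini-Hochberg adjustment over 13174 genes at 0.05, and the script was tested on simulated data. Summaries used Python 3.11.15, pandas 2.3.3, numpy 2.4.6 and matplotlib 3.10.9. Every array's value is given for the 3 members with the lowest and the 3 with the highest change among those past the threshold in each surgery comparison and strain difference. Of each list of other genes, at most the 3 with the smallest p are named. Members and lists were chosen with earlier results of these data known. Promoter windows come from RefSeq, build GRCm38.p6. Alternatives covered scaling, filter, probe sets, trend, array weights, a block by mouse number, the arrays fitted, arrays with other tissues' transcripts and leaving out each array. The protein sequences of the members were not used here.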

Additional observations from a re-analysis of the deposited data

Results flagged for a closer look

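The Nx effect differed between strains, by the limma test of the difference itself (FVB minus B6), for 2 members at day 2, Acaa1a (-0.77) and Phyh (-0.60). At day 53 it was more negative in FVB for 18 members. The mitochondrial ones were Acsm3 (-2.99), Acaa2 (-1.34), Acads (-0.90), Hadha (-0.69), Acadm (-0.66), Etfb (-0.59), Etfa (-0.51), Hadh (-0.45) and Acadvl (-0.37). The peroxisomal ones were Acox2 (-1.39), Decr2 (-1.14), Phyh (-0.84), Acaa1a (-0.62) and Acaa1b (-0.54). Amacr (-1.21), Acad11 (-1.10), Crat (-0.49) and Ech1 (-0.35) act in both or elsewhere. Acot1 was more positive in FVB (1.08). Of the 16 fits that each left out 1 array, the day 53 call was lost in 12 for Acaa1b, 6 for Ech1 and 5 for Acaa1a, and at day 2 the call of Acaa1a was lost in 11.

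Single arrays lay far from the other 3 of their group for members described array by array. Acsm3 read 6.94 in mouse 4 of the FVB Nx group at day 2 (others 3.25 to 3.49), 4.30 in mouse 11 of the B6 Nx group at day 2 (others 3.61 to 3.63) and 4.03 in mouse 5 of the FVB sham group at day 2 (others 3.47 to 3.51). Acaa1a read 8.33 in mouse 5 of the B6 Nx group at day 2 (others 8.83 to 8.88). Ehhadh read 12.48 in mouse 5 of the FVB Nx group at day 2 (others 12.61 to 12.64), Eci2 11.65 in mouse 5 of the FVB sham group at day 2 (others 11.45 to 11.48), and Etfa 13.26 in mouse 8 of the FVB Nx group at day 28 (others 13.19 to 13.20). These are 7 of 216 groups checked against Dixon's limit for 4 samples, and chance alone puts about 1 in 20 groups past it.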

How the results depend on the processing

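Over the members described array by array, 631 of 688 alternative fits kept direction and call, 57 kept the direction but lost the call, and 0 reversed. Counts of called members that moved by more than 1.5 times were these, with the cause not tested. In FVB at day 28 the count of 3 became 6 with a median shift per array, 10 with array weights and 6 with only the arrays compared. In B6 the day 28 count of 10 became 4 with only the arrays compared, and the day 53 count of 8 became 13 with array weights. The strain difference at day 2, 2 members, became 1 with no filter on low values, with only the arrays compared, or without the arrays with brown fat transcripts, and 4 with array weights. Without the arrays with pancreas transcripts (fewer samples), the strain difference at day 28 became 1, and the changes of the Nx effect became 7 (FVB, day 2 to 28), 5 (B6, day 2 to 28) and 2 (B6, day 28 to 53); the B6 day 2 to 28 count was 4 with only the arrays compared. Mitochondrial minus peroxisomal means moved to 0.105 (FVB day 28, probe sets averaged), 0.180 (FVB day 28) and 0.321 (B6 day 28) without the pancreas arrays, and, without Acsm3 and Acox2, to 0.0315 (FVB day 28), -0.102 (FVB day 53), 0.0272 (B6 day 28) and -0.0923 (B6 day 53).

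Leaving out 1 array at a time gave 20 to 23 called members for FVB day 2, 2 to 4 for day 28 and 20 to 26 for day 53, and 14 to 18, 5 to 10 and 6 to 9 for B6. The strain difference ran from 1 to 3, was 0 throughout at day 28, and ran from 16 to 22. At day 2 it was 1 without any of B6 Nx mouse 3, FVB Nx mouse 2, B6 sham mice 1, 4 and 5, or FVB sham mice 1, 2 and 5. Day changes ran from 10 to 13, 16 to 19 and 6 to 9, with 0 for B6 day 28 to 53, and the sham strain difference from 13 to 15. Mitochondrial minus peroxisomal means ran from -0.0546 to 0.109, 0.130 to 0.155 and 0.0461 to 0.130 in FVB, and from -0.0045 to 0.0512, 0.218 to 0.297 and 0.155 to 0.198 in B6.

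Mouse numbers shared by Nx and sham groups were not treated as pairs, since nothing in the labels says that they pair animals. Deviations of same-numbered arrays correlated from -0.25 to 0.38 (10 pairs, median 0.10). Those of differently numbered arrays ran from -0.58 to 0.47 (86 pairs, median -0.02). With 10 pairs this check cannot decide whether the numbers pair animals. With mouse number as a random replicate block, the strain difference at day 2 was 4 and no other count moved by over 1.5 times; as a fixed block, FVB day 2 gave 20 members instead of 25, 19 of them shared.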

Other observations

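Genes of fatty acid and lipid synthesis, 17 measured, split between falls and rises after Nx. In FVB, 10 fell and 2 rose at day 2 (30.0% and 24.8% of all genes). At day 28, 2 fell and 2 rose (8.81% and 7.35%), and at day 53, 7 fell and 2 rose (27.8% and 25.9%). In B6, 6 fell and 2 rose at day 2 (24.4% and 20.2% of all genes). At day 28, 1 fell and 4 rose (9.14% and 9.85%), and at day 53, 1 fell and 5 rose (6.68% and 8.03%). Plin2, which coats lipid droplets, rose in all 6 comparisons, by 1.38, 0.75 and 1.24 in FVB and by 1.00, 0.84 and 0.77 in B6. Elovl6, an elongase of saturated chains, fell in FVB at each day (-1.29, -1.07 and -1.77) and in B6 at days 2 and 28 (-0.57 and -0.49). Dgat2, which makes triglyceride, fell in FVB at days 2 and 53 (-0.99 and -1.41) and in B6 at day 2 (-0.71), and its B6 change of 0.26 at day 53 did not pass.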
